A study of Mus musculus with 27 samples.

Results

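The 10 genes described here write, copy, erase or guard DNA methylation and were chosen by name. They are the methyltransferases Dnmt1, Dnmt3a and Dnmt3b, their partners Dnmt3l and Uhrf1, the dioxygenases Tet1, Tet2 and Tet3, and the protective factors Zfp57 and Dppa3. All 10 had a row in each of 8 tables, each of which lists 25209 genes. The tables were made from RNA of V6.5 mouse embryonic stem cells (mESC), as WT cells and as the clones KO4 and KO8, in which a triple transcriptional terminator with mCherry or puromycin resistance was inserted behind exon 3 of Zfp512b, the gene of a zinc finger protein. Each of KO4 and KO8 is a single clone, both were picked for showing the least increase in proliferation, and the WT cells did not pass through the editing and selection. Naive cells (Day 0, 2iLIF medium) had 3 libraries per genotype. Primed cells (Day 2, serum with LIF), CM samples (Day 7.5) and NPC samples (Day 10) had 2 libraries per genotype, which makes 27 libraries in all. CM samples were differentiated toward cardiomyocytes through 4 days of hanging drops with 1000 cells each. Vitamin C was in the medium of the drops and in that used afterward. NPC samples were differentiated toward neural progenitors through 4 days of hanging drops and then 5 µM retinoic acid for 4 days. The labels do not say whether the libraries of a group came from separate cultures, so p-values measure only the spread between these libraries, which may be technical.

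DNA methylation in mammals sits mostly on cytosines that are followed by guanine (CG). Dnmt1, guided to newly replicated DNA by Uhrf1, copies the marks of the parent strand, while Dnmt3a and Dnmt3b set new marks with the help of Dnmt3l, which has no catalytic activity of its own. The Tet enzymes oxidize methylated cytosine, a step toward its removal, Zfp57 keeps imprinted regions methylated, and Dppa3 (also called Stella) binds Uhrf1 and is known from oocytes and early embryos. Naive cells in 2iLIF medium are known for low DNA methylation, which increases once cells leave this state.

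The tables give a base mean per gene, which is the mean normalized read count over the WT libraries and those of 1 clone, and no count per library. Whole reads per library were recovered from the base means of both tables of a stage. This was possible for 99.5% of the 8134 detected genes with base means under 100 in naive cells, and for 99.9% (primed), 99.5% (NPC) and 99.96% (CM) of genes with base means under 1000. Most of the 10 genes lie above these limits, so that reads were recovered in 9 of 40 combinations of gene and stage (0 in naive cells, 2 in primed cells, 3 in NPC and 4 in CM samples). Only these 9 were tested, and for the other 31 the base means are given without a test. All 9 passed the filter of a mean normalized count of at least 10. Base means summed to 36.0 and 36.1 megareads (M) per table in naive cells and to between 16.8 and 18.6 M at the other stages. Libraries of a group differed by more than counting noise in all 18 pairs (chi-square per gene 1.77 to 10.1, where counting noise alone gives about 1), and the KO8 pair of the NPC samples differed most.

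The targeted gene was checked first. Zfp512b had 977 and 979 reads in the WT libraries of primed cells, 188 and 213 in KO4, and 183 and 135 in KO8. In CM samples it had 1199 and 1076 reads in WT, 179 and 199 in KO4, and 165 and 169 in KO8. Both clones thus lay far below WT at both stages without overlap, with log2 fold changes of -2.19 ± 0.11 (SE) and -2.47 ± 0.13 in primed cells and -2.42 ± 0.13 and -2.72 ± 0.13 in CM samples (KO4 and KO8, limma-voom with Benjamini-Hochberg adjustment, largest adjusted p = 1.68e-07). Its reads in naive and NPC samples were not recovered.

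Promoter sequence is shown for the 2 genes among those tested whose promoters differ most in CG content, since CG is the substrate of these enzymes. RefSeq (GRCm38.p6) held promoters for 9 of the 10 genes, from 250 bases before to 50 bases after a start, and none for Dppa3. The median over 32851 promoters of this length was 7 CG, and 94.6% held at least 1. The lines below give Dnmt3l at its 3 starts on chromosome 10, plus strand (chr10:78042037-78042336 with 6 CG, chr10:78049592-78049891 with 4 and chr10:78055085-78055384 with 3), and Tet2 on the minus strand (chr3:133544341-133544640 with 57), 5′ to 3′ with every CG in capitals.
Dnmt3l start 1: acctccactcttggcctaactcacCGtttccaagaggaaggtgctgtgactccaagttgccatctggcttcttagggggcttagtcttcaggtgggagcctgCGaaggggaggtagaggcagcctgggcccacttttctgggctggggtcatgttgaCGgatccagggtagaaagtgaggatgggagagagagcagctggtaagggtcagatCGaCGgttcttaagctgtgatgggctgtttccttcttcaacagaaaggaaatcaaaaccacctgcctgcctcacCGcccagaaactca
Dnmt3l start 2: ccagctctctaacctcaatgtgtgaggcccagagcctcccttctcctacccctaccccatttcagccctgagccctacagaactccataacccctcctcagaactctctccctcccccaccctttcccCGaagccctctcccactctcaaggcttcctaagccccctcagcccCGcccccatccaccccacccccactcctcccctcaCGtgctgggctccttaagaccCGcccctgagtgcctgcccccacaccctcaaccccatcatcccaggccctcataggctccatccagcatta
Dnmt3l start 3: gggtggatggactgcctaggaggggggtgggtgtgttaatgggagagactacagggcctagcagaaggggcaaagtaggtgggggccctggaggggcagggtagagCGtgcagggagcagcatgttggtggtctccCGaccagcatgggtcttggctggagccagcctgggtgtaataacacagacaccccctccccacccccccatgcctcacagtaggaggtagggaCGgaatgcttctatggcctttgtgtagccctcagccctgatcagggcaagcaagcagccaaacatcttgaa
Tet2: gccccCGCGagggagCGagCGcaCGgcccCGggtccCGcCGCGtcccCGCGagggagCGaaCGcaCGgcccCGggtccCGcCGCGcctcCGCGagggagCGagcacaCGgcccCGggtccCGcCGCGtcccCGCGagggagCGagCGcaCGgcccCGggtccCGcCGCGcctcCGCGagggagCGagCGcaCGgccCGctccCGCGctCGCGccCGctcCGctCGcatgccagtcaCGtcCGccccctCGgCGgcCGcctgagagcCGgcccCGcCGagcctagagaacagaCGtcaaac
All 3 Dnmt3l promoters held fewer CG than the median promoter. The Tet2 promoter was among the richest, and 0.152% of promoters held as many. The other 7 genes with a RefSeq promoter had between 2 (1 start of Dnmt1) and 47 (1 start of Dnmt3a) CG per promoter. Methylation itself was not measured in these samples.

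Across stages Dnmt1 varied least of the 10 genes, and Dnmt3l and Dnmt3b varied most. Levels are given as base mean per 1000000 of a table's summed base means, from the KO4 table and then the KO8 table. They are pooled over WT and clone libraries by the authors, so they carry no SD, and stages were not tested against each other. Dnmt1 (mm9 chr9:20711650-20757317, minus strand) stood at 500.5 and 486 in naive cells, 381 and 402 in primed cells, 282 and 299.7 in NPC samples and 365 and 327 in CM samples, a span of 1.70-fold between its highest and lowest stage. Uhrf1 (chr17:56442744-56462909, plus strand) was highest in naive cells at 967 and 939 and fell to 190.2 and 201 in NPC samples, a span of 4.87-fold. Both maintenance genes were thus lowest in NPC samples, with a smaller span than that of any other gene of the group.

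The genes for new methylation peaked after the naive stage. Dnmt3b (chr2:153475186-153513466, plus strand), the main enzyme of early embryonic methylation, rose from 152 and 151 in naive cells to 1115 and 1184 in primed cells, 7.34-fold and 7.86-fold, and then stood at 21.2 and 24.9 in NPC samples and at 354 and 274 in CM samples. Dnmt3l (chr10:77504692-77526367, plus strand) was 17.2-fold and 20.2-fold higher in primed than in naive cells, at 649 and 679 against 37.8 and 33.6. It had the widest span of the 10 genes, 104-fold, with 4.49 and 8.32 in NPC samples, and in CM samples it stood 34.0-fold and 108-fold below primed cells. Dnmt3a (chr12:3806007-3914443, plus strand), by contrast, kept its level from primed cells (455 and 460.5) to NPC samples (515 and 494), after 65.9 and 67.0 in naive cells. In NPC samples, then, Dnmt3a remained while Dnmt3b and Dnmt3l were near their lowest level, and in CM samples Dnmt3b (69.3 and 53.6 per kilobase of exon sequence) was again above Dnmt3a (13.5 and 16.3) in both tables, which share their WT libraries. Per kilobase of exon sequence the level of Dnmt3b in primed cells (218 and 232) was close to that of Dnmt3l (217 and 227). Dnmt3a had 27.3 and 27.7 on this scale, where its length counts the exons of 18 annotated transcripts together.

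**Figure D1:**
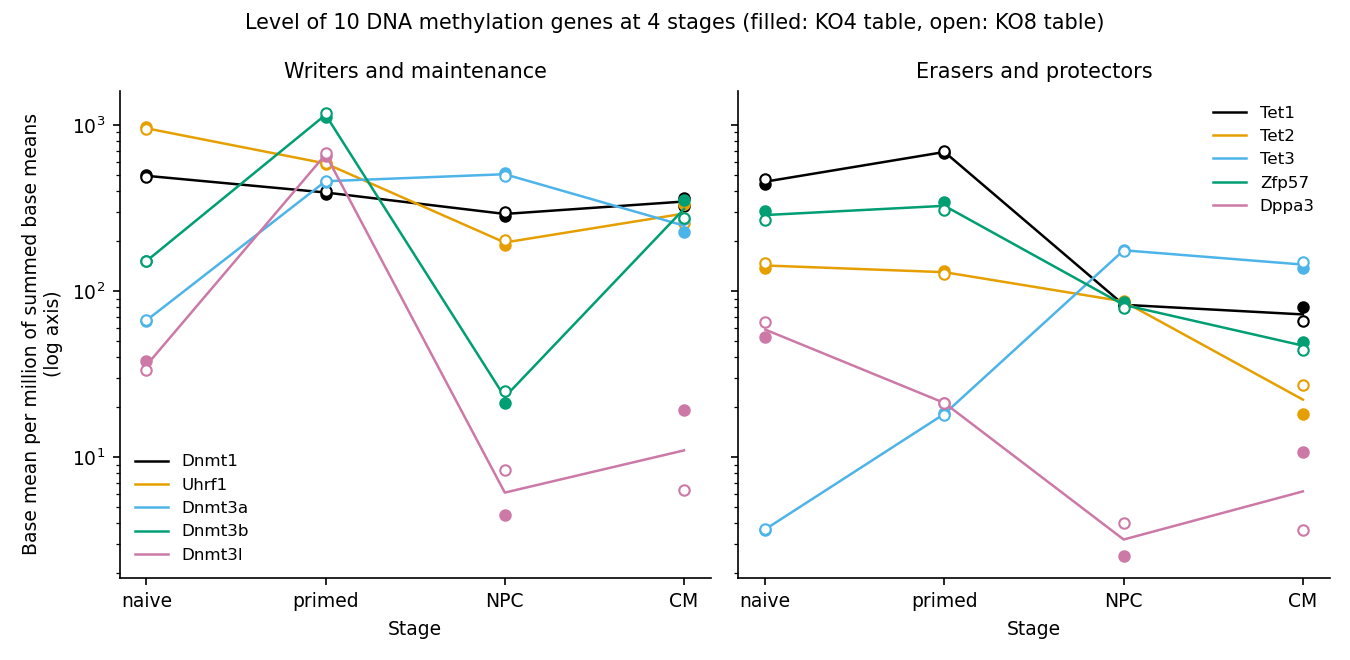
Levels of the 10 genes by stage, as base mean per 1000000 of the table's summed base means on a log axis, with filled points for the KO4 table, open points for the KO8 table and lines through the mean of both. Dnmt3b and Dnmt3l peak in primed cells, Tet3 rises from 3.64 in naive cells to 177 in NPC samples (KO4 table), and Dnmt3l and Dppa3 in CM samples are the points at which the tables lie farthest apart.

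The Tet genes exchanged places. Tet1 (chr10:62267318-62361866, minus strand) was the most abundant of them, also per kilobase, in naive cells (441 and 469) and primed cells (673 and 699.7) and dropped to 83.1 and 82.0 in NPC samples, 8.10-fold and 8.53-fold below primed cells. Tet3 (chr6:83312367-83391672, minus strand) went the other way, from 3.64 and 3.72 in naive cells through 18.4 and 18.0 in primed cells to 177 and 175 in NPC samples and 138 and 150.4 in CM samples. Tet2 (chr3:133126643-133207354, minus strand) held 138 and 147 in naive cells and 132 and 127 in primed cells and stood at 18.2 and 27.0 in CM samples. Per kilobase, Tet1 was at 29.96 and 31.91 and Tet3 at 0.328 and 0.335 in naive cells, while in NPC samples Tet3 (15.9 and 15.8) stood above Tet1 (5.65 and 5.58). Of the protective factors, Zfp57 (chr17:37138108-37147580, plus strand) fell from 343 and 309 in primed cells to 49.5 and 44.4 in CM samples. Dppa3 (chr6:122576428-122580290, plus strand), a marker of naive cells, was highest there at 52.7 and 65.1, reached 21.1 and 21.2 in primed cells and stood at 2.55 and 3.99 in NPC samples, though in the KO8 table CM samples were lower still at 3.62. In all, 4 of the 10 genes (Dnmt1, Uhrf1, Tet2 and Dppa3) were highest in naive cells, and 3 of them when levels were taken relative to the median gene.

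In naive cells no gene of the group could be tested, and the tables were compared instead. Both tables of a stage hold the same WT libraries. The ratio of their base means therefore reflects how KO4 and KO8 differ from each other, but not how either differs from WT. At every stage the KO4 table was first rescaled, so that these WT libraries had the same scale in both tables. Base means are printed without this rescaling, so their plain ratio differs from the log2 ratio given. Of the 6492 naive genes with base means of at least 1000, 90% had ratios within 0.10 on the log2 scale. Dppa3 lay outside this range, with a base mean of 1901 in the KO4 table and 2342 in the KO8 table, a log2 ratio of -0.30, and 99.5% of those genes had a smaller ratio in either direction. Zfp57 (11006 and 9684, log2 ratio 0.19) and Dnmt3l (1364 and 1210, 0.17) lay outside it on the other side. In terms of group means, the KO4 mean minus the KO8 mean came to -41.2% of the level for Dppa3, 25.9% for Zfp57 and 24.2% for Dnmt3l. The other 7 genes had ratios between -0.08 (Tet1) and 0.05 (Uhrf1), within the range. These ratios have no replicate check.

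**Figure D2:**
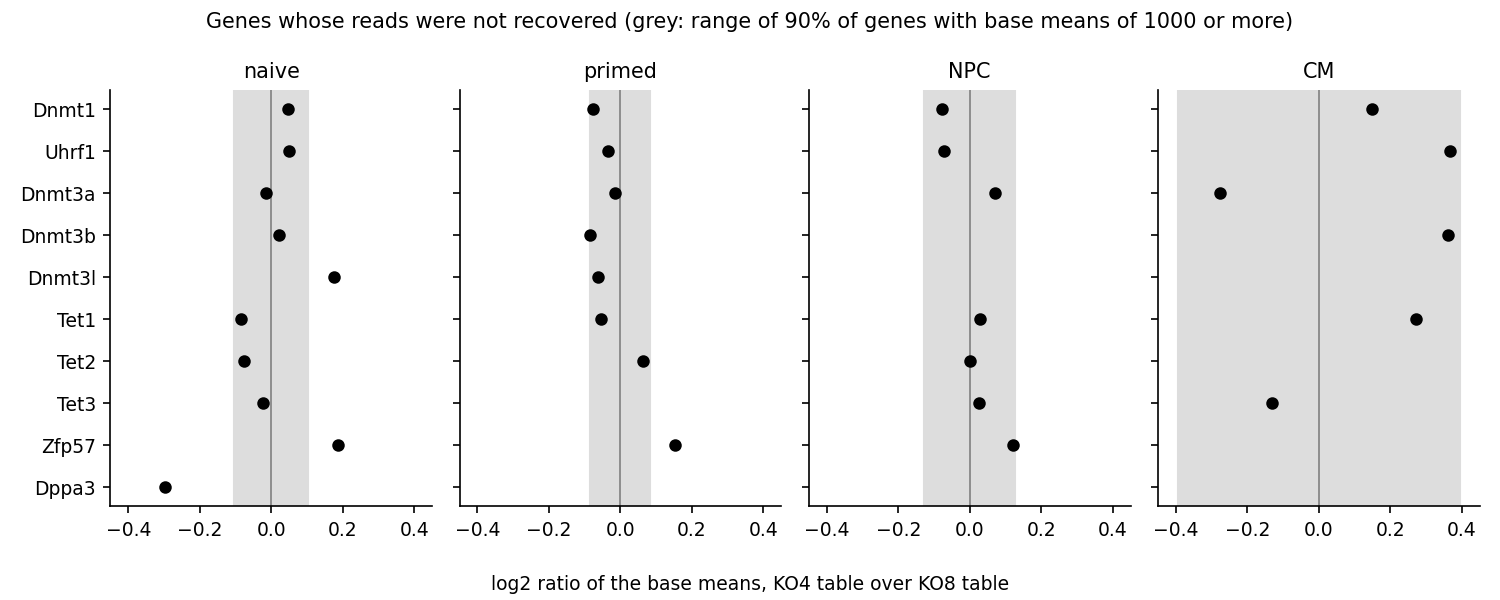
Log2 ratio of the base means (KO4 table over KO8 table, rescaled to the shared WT libraries), 1 panel per stage. Shown are the 31 combinations of gene and stage without recovered reads. A grey band holds 90% of genes with base means of at least 1000. In naive cells Dppa3 (-0.30) lies to the left of the band and Dnmt3l (0.17) and Zfp57 (0.19) to its right, and in CM samples the band itself is wider (0.39). Tet3 in naive cells is the only point from a base mean under 1000.

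In primed cells 2 genes had recovered reads, and Tet3 was higher in both clones. Tet3 had 305 and 255 reads in WT, 361 and 353 in KO4, and 307 and 340 in KO8. Normalized for depth, this was 263 ± 24.8 (SD, n = 2) in WT, 360.3 ± 3.00 in KO4 and 342 ± 55.7 in KO8, and the libraries of neither clone overlapped with those of WT. The log2 fold change was 0.45 ± 0.12 (SE) in KO4 (limma-voom, adjusted p = 0.00455) and 0.36 ± 0.12 in KO8 (adjusted p = 0.0382). Both calls rested on single libraries: without the WT library of 255 reads the values were 0.36 (adjusted p = 0.0999) in KO4 and 0.26 (0.311) in KO8 by the same test, and without the KO8 library of 340 reads the KO8 value was 0.20 (0.458). Of all 9244 genes tested, 20.0% were called in KO4, 14.8% in KO8, 5.59% higher in both clones and 4.42% lower in both.

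Dppa3 had 462 and 377 reads in primed WT, 336 and 294 in KO4, and 323 and 282 in KO8, with normalized means of 394 ± 43.8 (SD, n = 2), 318 ± 27.6 and 318 ± 1.47. Every clone library was below every WT library. The log2 fold change was -0.31 ± 0.11 (SE) in each clone, with limma-voom adjusted p = 0.0398 in KO4 and 0.0537 in KO8, on either side of the threshold. The KO4 call was lost without the WT library of 462 reads (-0.20, adjusted p = 0.377) and without the KO4 library of 294 reads (-0.22, adjusted p = 0.308). The clones themselves did not separate in these 2 genes: KO8 minus KO4 was 0.00 (95% interval -0.24 to 0.24) for Dppa3 and -0.09 (-0.33 to 0.14) for Tet3, and 2.92% of all genes differed between the clones. Among the 8 genes given by base means in primed cells, Zfp57 had 5924 in the KO4 table and 5197 in the KO8 table, a log2 ratio of 0.15 with 98.4% of 3871 genes below it in size. Dnmt3b (19255 and 19927) lay at the edge of the 90% range at -0.08, and the other 6 lay inside it. Zfp57 was therefore higher in the KO4 table in naive and in primed cells alike.

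Markers of cell state differed from WT in the same primed libraries. The 2 of 10 markers of naive pluripotent cells with recovered reads summed to 1148 and 1156 normalized reads in WT, 791 and 764 in KO4, and 784 and 671 in KO8, and both were called lower in both clones. The 3 of 6 primed epiblast markers with recovered reads summed to 1055 and 1139 in WT, 715 and 715 in KO4, and 823 and 863 in KO8, with 1 of 2 tested called lower in each clone. Markers of neural progenitors went the other way (7 of 9 with recovered reads), at 490 and 398 in WT, 660 and 667 in KO4, and 725 and 746 in KO8, with 2 of 5 tested called higher in each clone. Over the whole lists the KO4 and KO8 tables stood at 3695 and 3599 per 1000000 for naive markers, 367 and 373 for epiblast markers and 94.8 and 95.4 for neural markers, of which 1 was listed at 0 in both tables. Their part in the values of Tet3 and Dppa3 was not tested.

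In NPC samples no gene of the group with recovered reads passed the test in either clone. Dnmt3b had 384 and 410 reads in WT, 331 and 307 in KO4, and 451 and 484 in KO8. Dnmt3l had 61 and 141 reads in WT, 43 and 54 in KO4, and 135 and 239 in KO8. Dppa3, with the lowest counts, had 48 and 46 reads in WT, 39 and 39 in KO4, and 53 and 131 in KO8. After normalization, the KO4 libraries were below and the KO8 mean above WT in all 3 genes. But the lower KO8 library fell within the WT range for Dnmt3b (420 against 372 and 439) and Dnmt3l (126 against 59.1 and 151). For Dppa3 the KO8 mean of 88.3 ± 55.1 (SD, n = 2) rested on 1 library.

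The log2 fold changes in NPC samples were -0.29 ± 0.14 (SE) and 0.14 ± 0.13 for Dnmt3b, -0.90 ± 0.56 and 0.87 ± 0.43 for Dnmt3l, and -0.25 ± 0.52 and 0.71 ± 0.45 for Dppa3 (KO4 and KO8, limma-voom, smallest adjusted p = 0.253). None of the 3 had an unadjusted p under 0.05 in either clone. Between the clones Dnmt3b (0.43 ± 0.14) and Dnmt3l (1.77 ± 0.52) did, with adjusted p = 0.188 and 0.158. Of 9599 genes tested, 5.29% were called in KO4, 9.09% in KO8, 1.02% between the clones, 1.83% higher in both clones and 1.48% lower in both. These counts moved with single libraries of every genotype: the KO4 count of 508 genes became 1 without either KO4 library, 3 or 18 without a WT library and 1690 or 1707 without a KO8 library. The values of Dnmt3l also rested on the WT pair of 61 and 141 reads. Without the library of 61 reads they were -1.59 in KO4 and 0.17 in KO8, and without that of 141 reads -0.25 and 1.52, none past the threshold. Without the KO8 library that had 53 Dppa3 reads, KO8 exceeded WT by 1.32 in Dnmt3l (adjusted p = 0.000408) and by 1.40 in Dppa3 (adjusted p = 0.000508), and KO8 exceeded KO4 in all 3 genes (0.51, 2.22 and 1.65, limma-voom, largest adjusted p = 0.0151). The lone KO8 library was then assumed to vary like the other groups. Without the KO8 library of 131 Dppa3 reads, only the KO8 minus KO4 value of Dnmt3l passed among the 3 genes (1.33, adjusted p = 0.0233).

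Markers of pluripotent cells also differed between these libraries. The 8 of 10 listed markers of naive pluripotent cells that had recovered reads in NPC samples summed to 1805 and 2793 normalized reads in the WT libraries, 1753 and 1800 in KO4, and 2740 and 4657 in KO8. In the same order, the WT libraries had 59.1 and 151 normalized reads of Dnmt3l and 46.5 and 49.2 of Dppa3. None of the markers was at 0 in any library and none of the 8 was called in either clone. Their part in the values of Dnmt3l and Dppa3 was not tested. In bulk samples fewer cells of a type and less RNA per cell cannot be told apart. Of the 7 genes given by base means in NPC samples, all had ratios inside the 90% range of 0.13 after the rescaling to WT. Zfp57 (1443 and 1379 before it, log2 ratio 0.12) came closest to the edge of this range.

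In CM samples the clones departed from WT in opposite directions. Dnmt3l had 178 and 231 reads in WT, 637 and 310 in KO4, and 31 and 33 in KO8. Dppa3 had 120 and 124 reads in WT, 302 and 212 in KO4, and 17 and 12 in KO8. For both genes each KO4 library was above and each KO8 library far below the WT range. Normalized means of Dnmt3l were 195 ± 41.8 (SD, n = 2) in WT, 504 ± 240.2 in KO4 and 31.6 ± 3.41 in KO8, and those of Dppa3 were 116 ± 6.35, 274 ± 64.3 and 14.2 ± 2.57.

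Dnmt3l, the cofactor of new methylation, was 1.30 ± 0.29 (SE, log2) higher in KO4 (limma-voom, adjusted p = 0.00193), and its log2 fold change in KO8 was -2.60 ± 0.61 (adjusted p = 0.00673). Dppa3 was 1.22 ± 0.20 higher in KO4 (adjusted p = 0.000240) and in KO8 was 7.97-fold below WT (SE 0.47 on the log2 scale, adjusted p = 0.000414). The clones differed by -3.90 ± 0.59 in Dnmt3l (adjusted p = 0.000106) and -4.21 ± 0.45 in Dppa3 (adjusted p = 6.3e-06, KO8 minus KO4, limma-voom), which is 15.0-fold and 18.6-fold. The KO8 call of Dnmt3l was lost when either KO8 library was left out (-2.48 with adjusted p = 0.0950 and -2.71 with 0.0733). All other calls of Dnmt3l and Dppa3 in CM samples held without any 1 library.

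**Figure D3:**
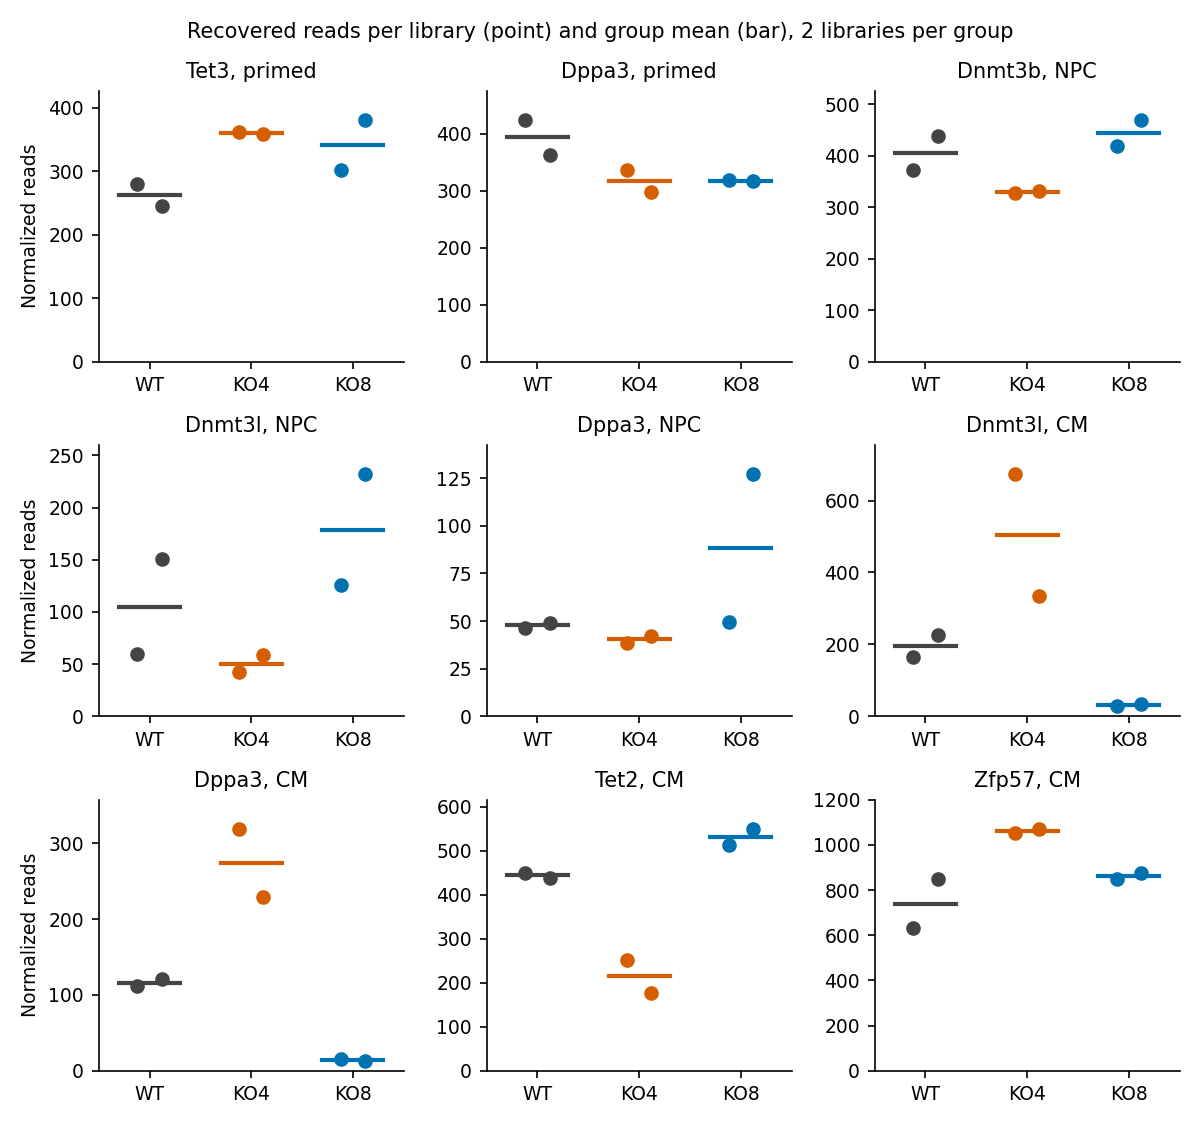
Normalized reads per library (points) and group means (bars) for the 9 combinations of gene and stage with recovered reads, 2 libraries per group, each panel from 0. In CM samples the KO8 points of Dnmt3l and Dppa3 lie below all WT points and the KO4 points above them, while Tet2 is low in KO4 alone.

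Tet2 showed the reverse pattern. Its reads were 484 and 450 in WT, 238 and 164 in KO4, and 545 and 535 in KO8, so that KO4 lay below WT and KO8 above it without overlap. The log2 fold change was -1.07 ± 0.16 (SE) in KO4 (limma-voom, adjusted p = 8.37e-05), and 0.25 in KO8 with a 95% interval from -0.01 to 0.52 (adjusted p = 0.139). The clones differed by 1.33 ± 0.15 (adjusted p = 1.27e-05). Zfp57, which maintains imprints, had 678 and 872 reads in WT, 996 and 995 in KO4, and 905 and 851 in KO8. It was 0.54 ± 0.11 higher in KO4 (adjusted p = 0.000975), while the KO8 libraries, at 851 and 876 normalized reads, lay just above the higher WT library at 849 and the value of 0.24 ± 0.11 did not pass the test (limma-voom, adjusted p = 0.133). Without the WT library of 872 reads the KO8 value of Zfp57 was 0.45 (adjusted p = 0.00229). KO8 was 0.30 below KO4 (-0.30 ± 0.11, adjusted p = 0.0275), a call that was lost when any 1 of the 4 clone libraries was left out (adjusted p up to 0.160).

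**Figure D4:**
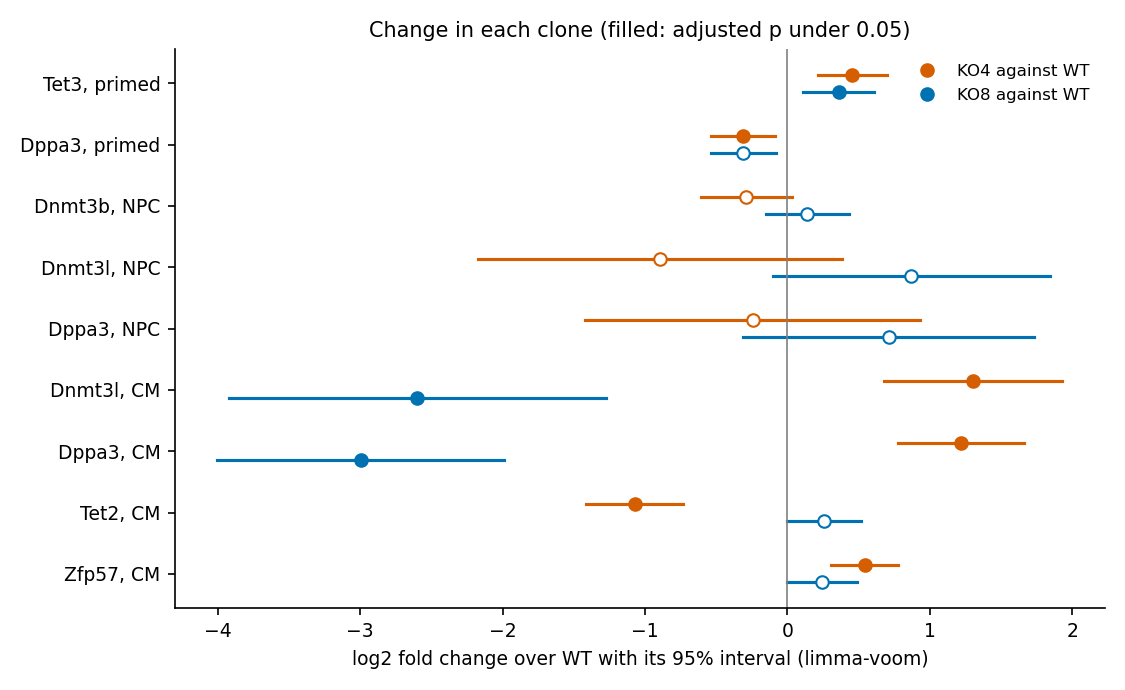
Log2 fold change of each clone over WT with its 95% interval from limma-voom for the 9 combinations of gene and stage, filled where the adjusted p was under 0.05. In CM samples Dnmt3l and Dppa3 lie on opposite sides of 0 in KO4 and KO8, and in NPC samples all 6 intervals include 0.

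All 4 genes tested in CM samples were thus called in KO4, 2 of 4 in KO8 and 4 of 4 between the clones, and none moved the same way past the threshold in KO4 and KO8. These shares stand beside a background of 56.0% of 9626 genes called in KO4, 27.7% in KO8 and 54.2% between the clones. Many of the genes tested, most of them with base means under 1000, thus differed in these samples. The background was 5.49% for genes higher in both clones and 8.39% for genes lower in both. Among the 6 genes given by base means, Uhrf1 (5987 in the KO4 table and 4779 in the KO8 table, log2 ratio 0.37), Dnmt3b (6365 and 5099, 0.36) and Tet1 (1432 and 1220, 0.27) were higher in the KO4 table. Dnmt3a (4053 and 5051, -0.28) and Tet3 (2485 and 2801, -0.13) were lower there, and Dnmt1 had 0.15. All 6 lay inside the range of 0.39 that held 90% of 4579 genes.

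Cell type markers differed between the clones in the same samples. The 3 of 9 cardiomyocyte markers with recovered reads summed to 3589 and 4120 normalized reads in WT, 77.2 and 86.2 in KO4, and 3168 and 3336 in KO8. Of these markers, all 3 were called lower in KO4 and 1 was called lower in KO8. All 9 markers were lower in the KO4 table than in the KO8 table, at summed levels of 1413 and 2108 per 1000000. The 7 of 10 markers of naive pluripotent cells with recovered reads summed to between 2107 and 2425 in WT, 3136 and 4370 in KO4, and 2293 and 2389 in KO8. Of these, 4 were called higher and 2 lower in KO4, and 1 higher and 5 lower in KO8. Their median log2 fold change was 1.35 in KO4 and -1.44 in KO8. The whole list came to a level of 592 in the KO4 table and 302 in the KO8 table, and none of these markers was at 0. Markers of mesenchyme came to 1030 in the KO4 table and 3134 in the KO8 table, and those of neural progenitors to 541 and 209. The 5 of 9 neural markers with recovered reads, however, summed to 48.4 and 71.1 in WT, 99.2 and 112 in KO4, and 119 and 133 in KO8. The KO4 libraries labelled CM thus held little of the cardiomyocyte RNA found in the other CM libraries. The part of these markers in the values of Dnmt3l, Dppa3, Tet2 and Zfp57 was not tested.

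Whether a clone's change differed between stages could be tested for Dppa3, which had recovered reads in primed cells, NPC and CM samples, and for Dnmt3l between NPC and CM samples. For KO4, the log2 fold change of Dppa3 was 1.48 ± 0.29 (SE) greater in CM samples than in primed cells (limma-voom, adjusted p = 0.000997, background 26.8% of 8485 genes) and 1.45 ± 0.54 greater than in NPC samples (adjusted p = 0.0444, background 33.4%). The latter was lost in 13 of 18 fits that left out 1 library (adjusted p up to 0.138). For KO8 it was lower in CM samples by 2.71 than in primed cells (-2.71 ± 0.62, adjusted p = 0.0124, background 6.2%) and by 3.73 than in NPC samples (-3.73 ± 0.72, adjusted p = 0.00137, background 17.1%), and the former was lost without either KO8 library of the CM samples (adjusted p = 0.105 and 0.0851). NPC samples and primed cells were not separated in either clone (0.03 ± 0.51 and 1.02 ± 0.44, adjusted p = 0.985 and 0.289), but without the KO8 library that had 53 Dppa3 reads in NPC samples the KO8 value was 1.71 (limma-voom, adjusted p = 0.00165). Dnmt3l was tested in a fit of NPC and CM samples alone, chosen after the data were seen. Its log2 fold change in CM samples minus that in NPC samples was 2.20 ± 0.77 in KO4 (limma-voom, adjusted p = 0.0424, background 32.0% of 9181 genes, lost in 7 of 12 fits without 1 library). In KO8 the difference was -3.49 ± 0.88 (adjusted p = 0.0184, background 13.8%, lost in 3 of 12). These differences span a change of sign, from -0.90 in NPC to 1.30 in CM samples in KO4, and from 0.87 to -2.60 in KO8. For Dppa3 in the same fit, CM minus NPC did not pass in KO4 (adjusted p = 0.0629, 95% interval 0.25 to 2.67, passed in 3 of 12 fits without 1 library), and was -3.72 ± 0.74 in KO8 (adjusted p = 0.00481).

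Partner genes of the pathway were described through 6 lists: writers and maintenance partners, methyl-CpG readers, demethylation and base excision repair partners, imprint protection partners, cofactor metabolism, and germline genes that promoter methylation silences. Because strongly expressed genes were not recovered, few could be tested, namely 8 in naive cells, 35 in primed cells, 27 in NPC and 25 in CM samples. Both clones passed the test with the same sign in 3, 5, 0 and 3 of them, beside backgrounds over all genes of 8.01% higher and 7.08% lower in naive cells, 5.59% and 4.42% in primed cells, 1.83% and 1.48% in NPC samples, and 5.49% and 8.39% in CM samples. With so few partners these counts were not read as a departure from the background. In NPC samples, where limma-voom called none, 3 partners had an unadjusted p under 0.05 in both clones. The median log2 fold change over all genes tested lay between -0.01 and 0.01 at every stage.

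In naive cells, where 25.2% of 2797 tested genes were called in KO4, 25.5% in KO8 and 5.68% between the clones, 2 partners fell in both clones. Gadd45a, a stress-induced gene linked to DNA repair and demethylation, had 114, 81 and 93 reads in WT, 52, 46 and 61 in KO4, and 36, 49 and 52 in KO8, with log2 fold changes of -0.79 ± 0.20 (SE) and -1.13 ± 0.21. Mael, a germline gene that silences transposons, had 103, 97 and 98 reads in WT against 69, 53 and 52 in KO4 and 74, 52 and 58 in KO8 (-0.72 ± 0.19 and -0.76 ± 0.19). The libraries of both clones lay below WT in both genes.

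In primed cells Mael was again lower in both clones, at 253 and 286 reads in WT, 117 and 134 in KO4, and 159 and 159 in KO8 (-0.998 ± 0.157 and -0.60 ± 0.15). Of the other germline genes, Tex19.1 fell (-0.84 ± 0.10 and -0.39 ± 0.09) and Ddx4, an RNA helicase of germ cells, rose (0.57 ± 0.11 and 0.52 ± 0.11). On this list 13 of 16 genes were tested, 1 higher and 2 lower in both clones, so its members did not share a direction. Gadd45g fell from 235 and 269 reads in WT to 134 and 166 in KO4 and 165 and 103 in KO8 (-0.65 ± 0.16 and -0.77 ± 0.16), and Cxxc5, which has a CXXC zinc finger domain like those that bind unmethylated CG, fell by 0.37 and 0.36.

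In CM samples Gadd45g had 600 and 613 reads in WT, 145 and 99 in KO4, and 375 and 440 in KO8 (-2.17 ± 0.20 and -0.54 ± 0.13). Gadd45b had 695 and 598 reads in WT, 310 and 432 in KO4, and 293 and 288 in KO8 (-0.65 ± 0.14 and -1.11 ± 0.15). Zbtb38, a zinc finger protein that binds methylated CG, fell from 314 and 290 reads in WT to 188 and 197 in KO4 and 197 and 176 in KO8 (-0.48 ± 0.14 and -0.65 ± 0.14). The clone libraries of these 3 partners lay below WT without overlap. Partners were named only if they passed in both clones with the same sign, so their shared direction follows from that rule. The germline list had 7 of 16 genes tested in CM samples, with 1 called higher in KO4, 3 called lower in KO8 and none called in both clones. Over all genes tested, 56.0% were called in KO4 and 27.7% in KO8.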

How the data were processed

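Per the labels and the study's methods, the authors used Trim Galore 0.6.7, HISAT2 2.2 (mm9), featureCounts and DESeq2 1.46.0 to go from reads to 1 table per clone and stage. Strand and multi-mapping settings of the counting are not given in the sources used here. Each of the 8 deposited tables holds a base mean (a signal: the authors' mean of normalized reads over WT and clone libraries, scaled within the table) beside the authors' log2 fold change, its standard error, Wald statistic, p-value and adjusted p. These comparison columns were not used, and 0 other columns of per-sample values were left out.

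Genes with a single read show each library's size factor, and WT libraries appear in both tables of a stage. Whole-number reads that fit both base means (written to at most 10 significant digits) were searched and accepted where all other solutions together had a weight under 0.001, averaged over 5 dispersions from 0.001 to 0.1. This leaves out strongly expressed genes. The recovery and the fit were tested on simulated data. Libraries were numbered arbitrarily.

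Recovered genes with a mean normalized count of at least 10 were fitted with limma-voom (limma 3.58.1, R 4.3.3), 3 genotypes of a stage in 1 fit, with median-of-ratios scaling. Tests were two-sided, with Benjamini-Hochberg adjustment over all genes tested and a threshold of 0.05, and intervals are at 95%. Stage differences were contrasts of contrasts in 1 fit over primed, NPC and CM samples. The comparisons of KO4 and KO8 share their WT libraries. For genes without recovered reads, the base means of both tables were set side by side. Levels across stages are base means per 1000000 of the table's sum, and per kilobase of the union of annotated exons (mm9) where genes are compared. Recovered reads, on weakly expressed genes alone, summed to between 102885 and 128666 per library in naive cells, 2386710 and 2875380 in primed cells, 2871490 and 3360340 in NPC samples, and 2865200 and 3362690 in CM samples.

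The 10 genes and the lists were chosen with earlier results of these data known. All 10 genes and Zfp512b were named at every stage, and from the partner lists up to 8 genes per stage that passed in both clones with the same sign, ranked by the smaller of both changes. A gene of the partner lists is not reported here. Alternatives were other scalings, no filter, no voom weights with a pseudocount of 0.5 or 4, stricter recovery (1e-06), 2 groups per fit with the deposited size factors, and each library left out. Python 3.11.15 with numpy 2.4.6, pandas 2.3.3, scipy 1.17.1, sympy 1.14.0 and matplotlib 3.10.9 was used.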

Additional observations from a re-analysis of the deposited data

Results flagged for a closer look

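The response of 4 genes differed between the clones in CM samples, by a test of KO8 minus KO4 in the limma-voom fit. The log2 difference was -3.90 for Dnmt3l, -4.21 for Dppa3, 1.33 for Tet2 and -0.30 for Zfp57. All libraries of KO4 and KO8 were separated in each of the 4 genes, with 54.2% of all genes tested also called. The cardiomyocyte and pluripotency markers given above differed between the same libraries, and their part in these values was not tested.

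The change of Dppa3 differed between stages. In KO4 its log2 fold change was 1.48 higher in CM samples than in primed cells and 1.45 higher than in NPC samples. In KO8 it differed by -2.71 and -3.73. In the fit of NPC and CM samples alone, chosen after the data were seen, the change in CM samples minus that in NPC samples was 2.20 in KO4 and -3.49 in KO8 for Dnmt3l, and -3.72 in KO8 for Dppa3. The KO4 value of Dppa3 did not pass in that fit (limma-voom, adjusted p = 0.0629). In groups of 2 and 3 libraries, single outlying libraries were not sought beyond comparing pairs and leaving out each library in turn.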

How the results depend on the processing

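No paired analysis was possible because the tables carry no replicate numbers and the recovered libraries could be numbered only arbitrarily. Alternatives gave 584 values for the tested genes of the group and for Zfp512b. For the partner genes they gave only the number called in both clones. Of the 584 values, 518 kept their direction and their side of the threshold. Another 42 kept the direction but lost the call, 16 gained one and 8 turned sign, all 8 in differences close to 0. Those were KO8 minus KO4 in primed cells for Dppa3 (from -0.0872 to 0.0886, including -0.00110 and -0.00282) and Tet3 (from -0.25 to 0.0836), and KO4 in NPC samples minus primed cells for Dppa3 (from -0.0869 to 0.146, including -0.0623, -0.0289 and -0.0347). All 8 came from leaving out a library. Besides the calls named in the report, Dppa3 in primed KO4 was lost without the filter (adjusted p = 0.106), without weights (0.0521) and with a scaling without chromosome 8 (0.0501), and Dppa3 in primed KO8 passed with total reads (limma-voom, adjusted p = 0.0400) and with 2 groups per fit together with the deposited size factors (0.0263). Tet3 in primed KO8 (0.123) and Zfp57 between the clones in CM samples (0.0619) were lost without the filter, and the latter also without weights (0.0570). With 1 library left out, the KO8 value of Dppa3 in primed cells ran from -0.42 to -0.19 and passed in some of these fits. The cause of these changes was not tested.

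Counts over all genes depended most on the NPC libraries. For KO4 in NPC samples 508 genes were called, 760 without weights at a pseudocount of 0.5 and 768 at 4, 1643 with 2 groups per fit and the deposited size factors together, and 1 to 1707 with 1 library left out. For KO8 there were 873, 293 with that pair of changes and 41 to 2318 with 1 library left out, and between the clones 98, 152 and 172 without weights at these pseudocounts and 0 to 1658. In primed cells leaving out 1 library gave 1167 to 1798 for KO4 (1846 in all), 796 to 1478 for KO8 (1368) and 120 to 276 between the clones (270, or 83 without the filter). It gave 1330 to 2549 for KO8 in CM samples (2665) and 86 to 216 between the clones in naive cells (159). For stage differences it gave 16 to 278 for KO4 and 30 to 577 for KO8 between NPC samples and primed cells (57 and 135), 237 to 827 for KO8 between CM samples and primed cells (526), 930 to 1881 for KO8 between CM and NPC samples (1455), and 597 to 1824 in the fit of these stages alone (1263). Partner genes called in both clones numbered 0 in NPC samples, 1 without weights at either pseudocount and 0 to 2 with 1 library left out, and 3 to 6 in primed cells (5). In naive KO8, 54.8% of called genes were higher (391 against 322), and 66.9% (417 against 206) with 2 groups per fit and the deposited size factors together.

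Strongly expressed genes, among them Dnmt1, Uhrf1 and Tet1 at every stage, could not be tested at all. For Dppa3 in primed cells, with 2 libraries per group, a log2 fold change of -0.31 in each clone lay near the threshold.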
